A study of Mus musculus with 7 samples.

Results

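The genes described here are the protein-coding neighbours of Atxn7, the gene whose expanded CAG repeat causes spinocerebellar ataxia type 7 (SCA7) and was knocked into these mice. They lie on mouse chromosome 14 (build mm10) within 10 Mb of either edge of Atxn7, whose gene spans chr14:13961440-14107302. The rule took every protein-coding gene overlapping this segment, apart from Atxn7 itself and 3 other genes, with at least 10 raw counts in at least 3 libraries. It found 71 genes among the 52550 genes of the count table. The table held 167 protein-coding genes of the segment, of which 92 stayed under the minimum of counts and 4 were the excepted ones. Of the 71 genes, 24 lay proximal to Atxn7, towards the centromere, and 47 lay distal to it.

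Total RNA was sequenced from the retina of 7 mice aged 12.5 weeks on the C57BL/6J background, with both retinas of 1 mouse pooled in each library. The 4 wild-type (WT) mice carried no knock-in allele. The 3 SCA7 KI mice were homozygous for an allele of about 140 CAG repeats placed in exon 1 of Atxn7, which is expressed from the gene's own promoter in every cell that uses that promoter. Mice of both sexes entered the study and the labels give no sex for a library.

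ATXN7 is a subunit of SAGA, a coactivator complex that acetylates histone H3 at active genes, and its polyglutamine expansion leads to loss of photoreceptor gene expression in the retina. A targeted allele is inherited together with the DNA on both sides of it, so that homozygous knock-in mice are alike at the linked genes as well as at the targeted one. Between WT and homozygous mice, an effect of the expanded repeat on a neighbouring gene, an effect of the inserted sequence and an effect of linked DNA cannot be told apart.

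The neighbours are of many kinds. They include subunits and enzymes of RNA handling (Thoc7, Rpp14), nuclear receptors and chromatin proteins (Rarb, Nr1d2, Top2b, Kat6b), synaptic and channel proteins (Synpr, Cadps, Kcnma1), mitochondrial and lipid enzymes (Pdhb, Oxsm, Acox2), a cytokine receptor chain (Il3ra) and, at the proximal end, a group of genes that share much of their sequence with others. Their mean levels in WT retina ran from 0 to 479 CPM (counts per 1000000 counts of the library's effective size) with a median of 21.7 CPM. In WT, 13 genes were under 1 CPM and 10 were at 100 CPM or more. The genes were chosen by their raw counts over the libraries of both genotypes, and 61 of the 71 reached 10 counts in all 7 libraries. The genes just inside the minimum were Gm3755 and Kcnk5, whose third-highest count was 10, followed by 2610042L04Rik and Oit1 at 12. The genes just outside it were Gm49355 at 8 and Synpo2l, Gm3383 and Gm281 at 7.

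Promoter sequences are shown for the gene that shares its start with Atxn7, for the genes within 1 Mb that changed past the threshold, and for the 2 genes farther out with the smallest adjusted p. They run from 250 bases before to 50 bases after the start and come from RefSeq (build GRCm38.p6), on the gene's own strand, 5′ to 3′. Capitals mark a match to TAATCC, the core bound by the photoreceptor factor CRX, or to TGCTGA, a site bound by the rod factor NRL, on either strand.
Thoc7 promoter, chr14:13961264-13961563, minus strand: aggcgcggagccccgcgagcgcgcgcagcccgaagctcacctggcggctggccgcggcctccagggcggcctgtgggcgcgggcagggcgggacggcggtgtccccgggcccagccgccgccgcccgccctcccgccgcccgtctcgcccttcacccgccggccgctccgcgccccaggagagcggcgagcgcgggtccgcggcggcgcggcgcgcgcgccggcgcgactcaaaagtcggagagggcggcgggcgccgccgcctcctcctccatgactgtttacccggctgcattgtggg
Olfr31 promoter, chr14:14327863-14328162, plus strand: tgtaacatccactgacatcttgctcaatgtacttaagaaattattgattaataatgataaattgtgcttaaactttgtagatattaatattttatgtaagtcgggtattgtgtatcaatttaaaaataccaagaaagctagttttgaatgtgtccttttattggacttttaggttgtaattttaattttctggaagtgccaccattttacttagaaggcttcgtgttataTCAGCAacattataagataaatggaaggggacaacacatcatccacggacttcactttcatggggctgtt
Il3ra promoter, chr14:14346245-14346544, plus strand: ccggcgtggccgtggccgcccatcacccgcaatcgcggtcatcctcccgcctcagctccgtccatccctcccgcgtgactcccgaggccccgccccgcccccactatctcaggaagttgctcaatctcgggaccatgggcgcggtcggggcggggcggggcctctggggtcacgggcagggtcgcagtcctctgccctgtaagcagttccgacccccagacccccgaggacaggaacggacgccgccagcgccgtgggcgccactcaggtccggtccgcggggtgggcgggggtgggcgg
Nek10 promoter, chr14:14820565-14820864, plus strand: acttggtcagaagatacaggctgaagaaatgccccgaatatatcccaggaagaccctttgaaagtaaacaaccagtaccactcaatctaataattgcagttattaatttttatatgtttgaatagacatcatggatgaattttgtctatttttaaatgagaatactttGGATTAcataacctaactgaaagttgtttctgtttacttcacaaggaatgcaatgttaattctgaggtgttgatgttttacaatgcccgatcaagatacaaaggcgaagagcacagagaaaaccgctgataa
Fhit promoter, chr14:11161986-11162285, minus strand: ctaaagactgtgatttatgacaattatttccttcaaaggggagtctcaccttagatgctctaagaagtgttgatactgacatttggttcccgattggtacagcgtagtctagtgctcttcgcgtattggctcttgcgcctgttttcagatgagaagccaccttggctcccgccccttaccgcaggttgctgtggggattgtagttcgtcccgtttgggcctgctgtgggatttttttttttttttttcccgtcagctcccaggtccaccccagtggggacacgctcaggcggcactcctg
Cfap70 promoter, chr14:20452176-20452475, minus strand: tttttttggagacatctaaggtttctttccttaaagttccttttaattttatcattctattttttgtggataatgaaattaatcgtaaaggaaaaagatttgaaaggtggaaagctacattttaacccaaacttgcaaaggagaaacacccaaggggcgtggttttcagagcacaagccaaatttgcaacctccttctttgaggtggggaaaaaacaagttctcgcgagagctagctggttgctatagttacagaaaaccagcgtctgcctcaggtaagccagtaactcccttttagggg

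The Thoc7 promoter holds the start of Atxn7 on the other strand, and the genes share 413 bases there. It was the richest in G and C of these promoters, at 81.3%, followed by that of Il3ra at 74.3%. The promoters of Fhit (50.7%), Cfap70 (39.3%), Nek10 (34.7%) and Olfr31 (31.7%) held less. One CRX core began 82 bases before the printed Nek10 start, and 1 NRL site began 20 bases before the printed Olfr31 start. Both printed starts lie inside the gene bounds used here, which begin at chr14:14803415 for Nek10 and chr14:14322828 for Olfr31. These sequences, with their letters and their G and C, are thus not from the start of the whole gene. The other printed promoters held neither set of letters. RefSeq lists a second promoter for 2 of these genes. For Thoc7 the one that holds the Atxn7 start is shown, and the other was 51.3% G and C. For Fhit the one at the start of the whole gene is shown, and the other, at chr14:10453409-10453708, held a CRX core that began 127 bases before its start. RefSeq entries were found for 60 of the 71 genes, with 83 promoters in all. Of these, 4 (4.8%) held the CRX core and 14 (16.9%) the NRL site, against 7.1% and 19.5% of all 32851 mouse promoters of the same length. A match is a description of the letters and does not show a bound site.

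The retinas differed widely between the genotypes away from the locus as well. The 8 rod markers were all lower in SCA7 retina, with summed levels of 59820 to 61962 CPM in WT and 15725 to 20418 CPM in SCA7 libraries, and so were all 6 cone markers. All 7 microglial markers were higher, at 36.6 to 47.4 CPM in WT and 91.5 to 103 CPM in SCA7 libraries, as were 4 of 5 markers of reactive glia. Summed lens markers ranged from 26.7 to 351 CPM in WT and from 18.8 to 557 CPM in SCA7 libraries, and 2 of 4 pigment epithelium markers were lower. Of 4 endothelial markers 2 were higher, with summed levels of 128 to 166 CPM in WT and 179 to 234 CPM in SCA7 libraries, and 1 of 6 bipolar cell markers was lower. No marker was at 0, and none is among the 71 genes. In bulk retina, fewer cells of a type and less RNA per cell cannot be told apart, and the part of cell composition in the values below was not tested. Library totals ran from 56497675 to 96635832 counts. Atxn7 itself averaged 39.2 ± 4.26 CPM over the 4 WT mice (SD) and 37.6 ± 2.99 CPM over the 3 SCA7 mice, with a log2 fold change of -0.06 (SE 0.09, edgeR adjusted p = 0.64). The expansion adds repeats to this gene and does not remove it, so its level does not check the labels.

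Of the 71 neighbours, 17 changed past the study's thresholds. The thresholds were an FC (the ratio of SCA7 to WT) under 0.7 for downregulated and above 1.3 for upregulated genes, together with an adjusted p under 0.05. The p came from edgeR's quasi-likelihood test and was adjusted by Benjamini-Hochberg across the 20128 genes of the fit. The test covered 70 of the 71 genes, since Kcnk5, a potassium channel subunit, had too few counts for it. Of these 70, 4 were downregulated (Fam107a, Olfr31, Cfap70 and Dusp13) and 13 were upregulated (2610042L04Rik, Gm3411, Gm10406, Gm3739, Rpp14, Kctd6, Acox2, Fhit, 3830406C13Rik, Il3ra, Nek10, Oxsm and Plau). Together they were 24.3% of the neighbours tested. Across all 15422 protein-coding genes tested, 14.9% were called, 6.13% lower and 8.81% higher. The 53 tested genes that were not called had log2 fold changes from -0.50 (Kcnma1 and Nid2) to 0.46 (Gm2237). By adjusted p alone, 34 of the 70 passed (48.6%), 14 lower and 20 higher, against 31.1% of protein-coding genes, 13.6% lower and 17.5% higher. The genotypes did not overlap at 37 genes, 23 with every SCA7 library above every WT library and 14 with every one below, beside 40.7% of protein-coding genes without overlap.

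Over the 70 genes the log2 fold change had a median of 0.01, beside 0.02 over all protein-coding genes, with 34 values below 0 and 36 above. The median absolute log2 fold change was 0.28, beside 0.18 over all protein-coding genes. Each SCA7 mouse set against the same WT mean had median absolute log2 ratios of 0.30, 0.27 and 0.23. The share called was then set out by level in WT. Among neighbours at 10 CPM or more in WT, 4 of 44 were called (9.09%), beside 9.34% of protein-coding genes at that level. Among those at 1 to 10 CPM, 6 of 14 were called (42.9%), beside 26.8%. Among those under 1 CPM, 7 of 12 tested were called (58.3%), beside 21.3%. The minimum of counts was reached through 1 genotype alone, with no library of the other at 10 counts, by 4 genes. They were 2610042L04Rik, Gm3411 and Gm10406 through SCA7 and Dusp13 through WT, so a difference was built into their choice. Gm3739 and Gm2237 reached 10 counts in all 3 SCA7 libraries but in 2 and 1 WT libraries, so they too needed SCA7 to enter. All of the 4 are among the 7 called genes under 1 CPM, so the distance of that class from 21.3% was in part built in. Without the 4, 13 of 66 genes were called (19.7%), Gm3739 among them, and the median absolute log2 fold change was 0.23.

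**Figure D1:**
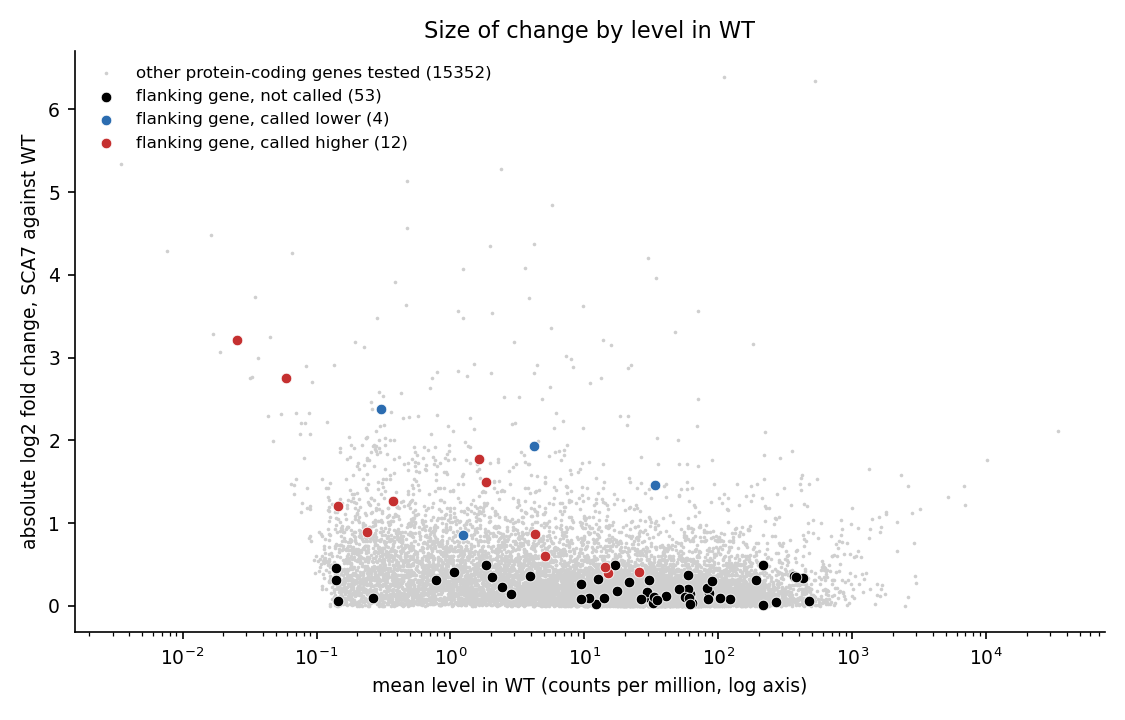
Absolute log2 fold change between SCA7 and WT retina against mean level in WT, in CPM on a log axis, for each protein-coding gene tested with a WT level above 0. Coloured and black points are 69 of the neighbours of Atxn7 and grey points the other genes. The called neighbours, red for higher and blue for lower, lie mostly at low levels, with 4 at 10 CPM or more, and the called gene 2610042L04Rik, at 0 in WT, is not drawn.

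Change was then ordered by distance from the nearest edge of Atxn7. Of the 6 genes within 1 Mb, 3 were called and 5 passed the adjusted p, with a median absolute log2 fold change of 0.61. From 1 to 2.5 Mb, 2 of 9 were called (22.2%) and 7 passed the adjusted p, with a median of 0.34. From 2.5 to 5 Mb, 1 of 6 was called (16.7%), and it was the only gene of the 6 to pass the adjusted p, with a median of 0.11. From 5 to 10 Mb, 11 of 49 were called (22.4%), 21 passed the adjusted p and the median was 0.23. The 4 genes that reached the minimum of counts through 1 genotype alone are among these 11. Without the 6 genes of the proximal end, 7 of 43 were called (16.3%), Dusp13 among them, 17 passed the adjusted p and the median was 0.20. The genes at the nearest distances thus had the largest median change of the 4 classes, on few genes. The medians did not fall evenly with distance, with or without the proximal end. With classes of 0 to 2, 2 to 5 and 5 to 10 Mb, the medians were 0.36, 0.13 and 0.23.

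Over all 70 genes the absolute change had a Spearman rho with distance of 0.03. It was 0.27 over the 24 proximal and -0.02 over the 46 distal genes, and -0.10 over the 64 genes left without the gene copies at the proximal end. Among the 58 genes at 1 CPM or more it was -0.20. The rho of absolute change with the WT level was -0.51, beside -0.32 over all protein-coding genes. With its sign kept, the change had a rho with distance of 0.02 over all 70 genes, 0.48 on the proximal and -0.16 on the distal side. These are descriptions across genes that share the 7 libraries, not tests. Outside the segment, 77 of 457 tested protein-coding genes of chromosome 14 were called (16.8%). Distal to Atxn7 the share was 12.5% at 10 to 20 Mb, 17.0% at 20 to 50 Mb and 18.2% from 50 Mb on. By chromosome, the share called ran from 10.5% to 18.3% over 20 chromosomes.

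**Figure D2:**
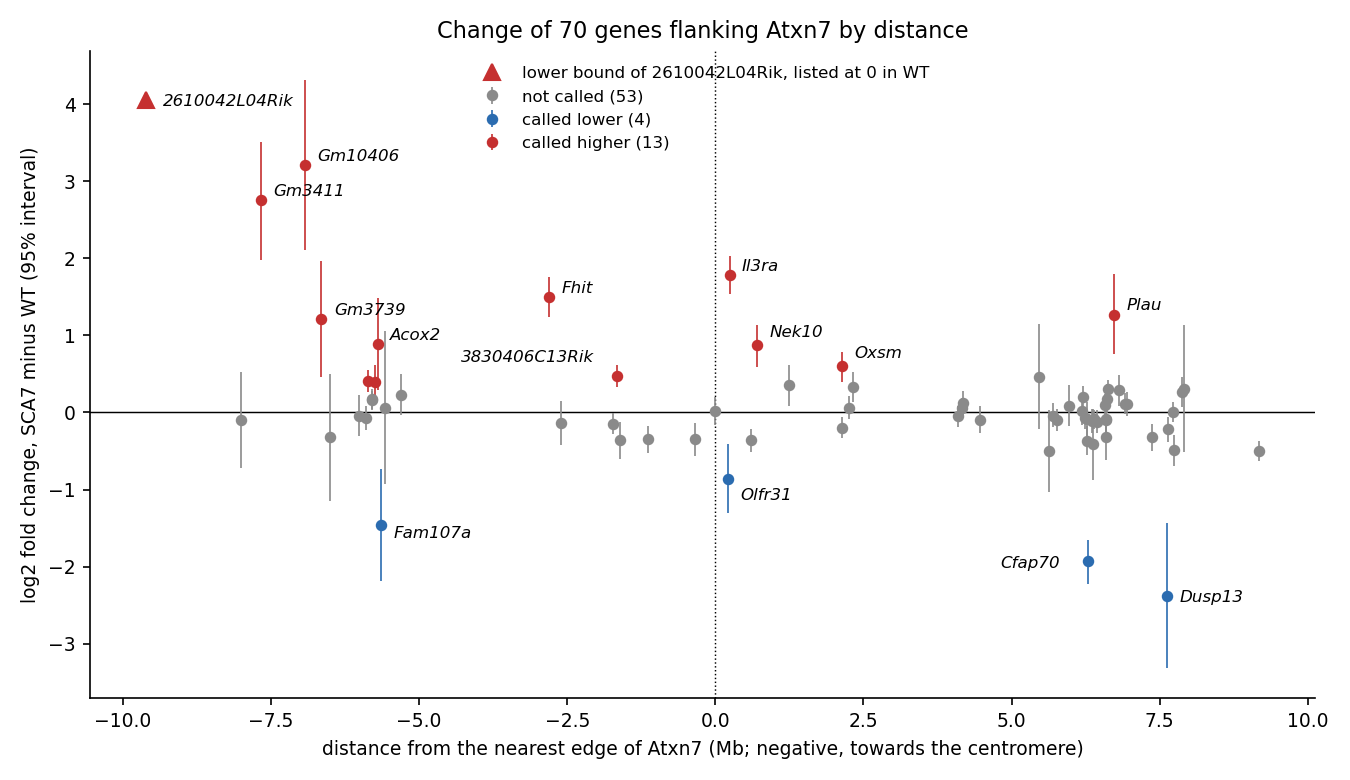
Log2 fold change (SCA7 minus WT) with its 95% interval for 70 genes against distance in Mb from the nearest edge of Atxn7, negative towards the centromere. Red points are upregulated, blue downregulated and grey not called, and the triangle marks the lower bound of 4.05 for 2610042L04Rik, which had no count in WT. Large changes in both directions stand beside genes near 0 at 0 to 1 Mb and again beyond 5 Mb.

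**Figure D3:**
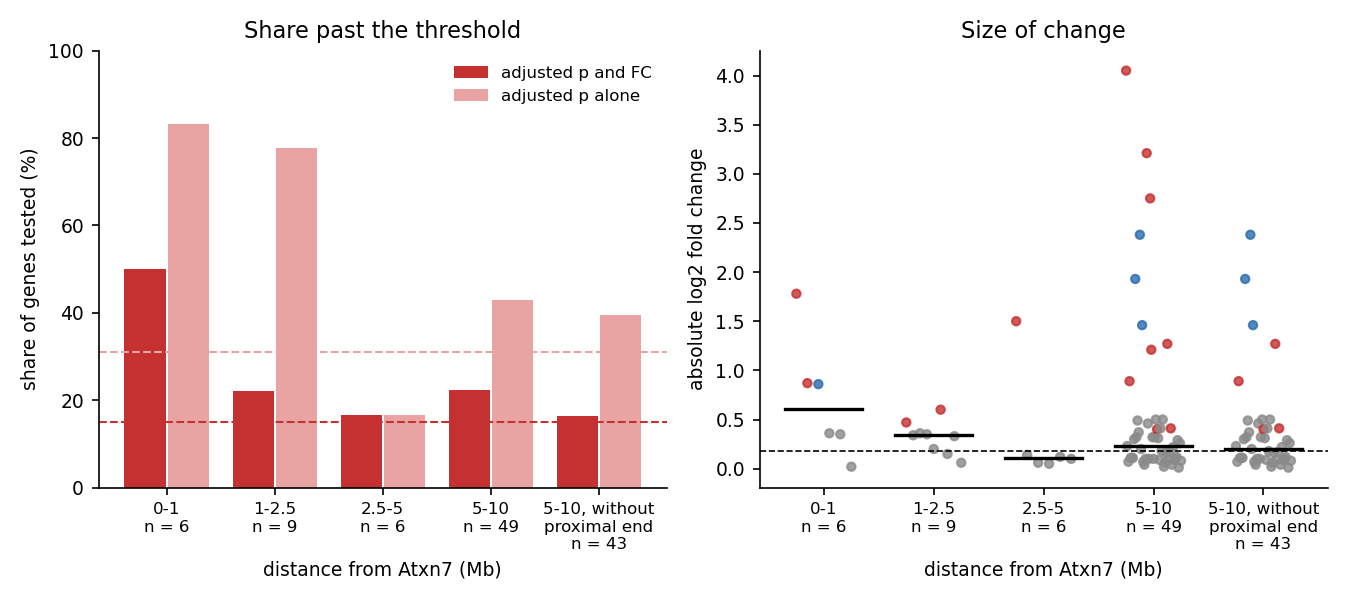
Left, share of tested neighbours past adjusted p and FC (dark bars) and past adjusted p alone (light bars) in 4 distance classes and in the last class without its proximal end. Dashed lines mark 14.9% and 31.1%, the shares of all protein-coding genes. Right, absolute log2 fold change of each gene, with solid lines at the class medians of 0.61, 0.34, 0.11, 0.23 and 0.20 and a dashed line at 0.18, the median of all protein-coding genes.

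The gene nearest to Atxn7 did not pass the test. Thoc7 (chr14:13949012-13961852, minus strand), which encodes a subunit of the THO complex that couples transcription to mRNA export, starts head to head with Atxn7. It was at 60.1, 64.1, 69 and 52.5 CPM in the WT mice and at 62, 64.1 and 60.5 CPM in the SCA7 mice. The SCA7 values lay inside the WT range. The log2 fold change was 0.02 (SE 0.08, 95% interval -0.16 to 0.20, edgeR adjusted p = 0.89). Synpr, for synaptoporin, a membrane protein of synaptic vesicles, lies 345 kb proximal. It was at 346, 381, 458 and 343 CPM in WT and 303, 297 and 300 CPM in SCA7 retina. Every SCA7 value was below every WT value, with a log2 fold change of -0.35 (SE 0.09, edgeR adjusted p = 0.016) that did not reach the FC threshold.

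A pair of genes just distal to Atxn7 moved in opposite directions. Il3ra (chr14:14346275-14356011, plus strand, 239 kb from Atxn7), which encodes the ligand-binding alpha chain of the interleukin 3 receptor, was at 1.47, 1.55, 1.84 and 1.62 CPM in WT retina. In SCA7 retina it was at 5.41, 5.67 and 5.6 CPM. The SCA7 mice lay close together and far above all WT mice. The fold change was 3.44 (log2 1.78, SE 0.11, edgeR adjusted p = 5.5e-07). None of its 50-base windows occurred in another gene. Il3ra is also a gene of immune cells, and the 7 microglial markers rose in the same libraries with a median log2 fold change of 1.38. Whether they share a source was not tested.

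Olfr31 (chr14:14322828-14331791, plus strand, 216 kb from Atxn7), an olfactory receptor gene, was at 1.61, 1.06, 1.05 and 1.24 CPM in WT and 0.796, 0.727 and 0.544 CPM in SCA7 retina. All SCA7 values were below all WT values, with an FC of 0.551 (log2 -0.86, SE 0.21, edgeR adjusted p = 0.0089). Without SCA7 replicate 3, the lowest library, the log2 fold change was -0.70 and the adjusted p was 0.05, so that the call was lost. Between these genes, on the opposite strand, the annotation places Gm48860 (chr14:14328004-14347264), a noncoding antisense gene that begins inside Il3ra and ends inside Olfr31. It had 3, 0, 1 and 0 counts in WT and 16, 29 and 53 counts in SCA7 libraries. The increase (log2 4.42, SE 0.61, edgeR adjusted p = 2.4e-04) was the only call for a higher level among the genes of other biotypes in the segment. The gene reached 10 counts in SCA7 libraries alone, so a difference was built into its entry, and it is named after its values were seen. Its exons cover 22.7% of those of Olfr31 and 1.6% of those of Il3ra. The libraries keep strand, but the sources used here do not give the strand option of the counting, so reads of Olfr31 and of its antisense partner may not be told apart where their exons overlap.

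The 2 remaining genes within 1 Mb lie side by side and also moved apart. Slc4a7, a sodium bicarbonate cotransporter whose loss in mice causes photoreceptor degeneration, lies 595 kb distal. It was at 397, 384, 347 and 352 CPM in WT and 284, 293 and 288 CPM in SCA7 retina, without overlap. Its log2 fold change of -0.36 (SE 0.07, edgeR adjusted p = 0.002) did not reach the FC threshold. Nek10, a NIMA-related kinase known from ciliated cells, lies 696 kb distal, and its levels were 4.51, 4.11, 4.8 and 3.73 CPM in WT and 6.68, 7.52 and 9.16 CPM in SCA7 retina. It was upregulated in all 3 SCA7 mice with an FC of 1.82 (log2 0.87, SE 0.12, edgeR adjusted p = 3.1e-04).

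**Figure D4:**
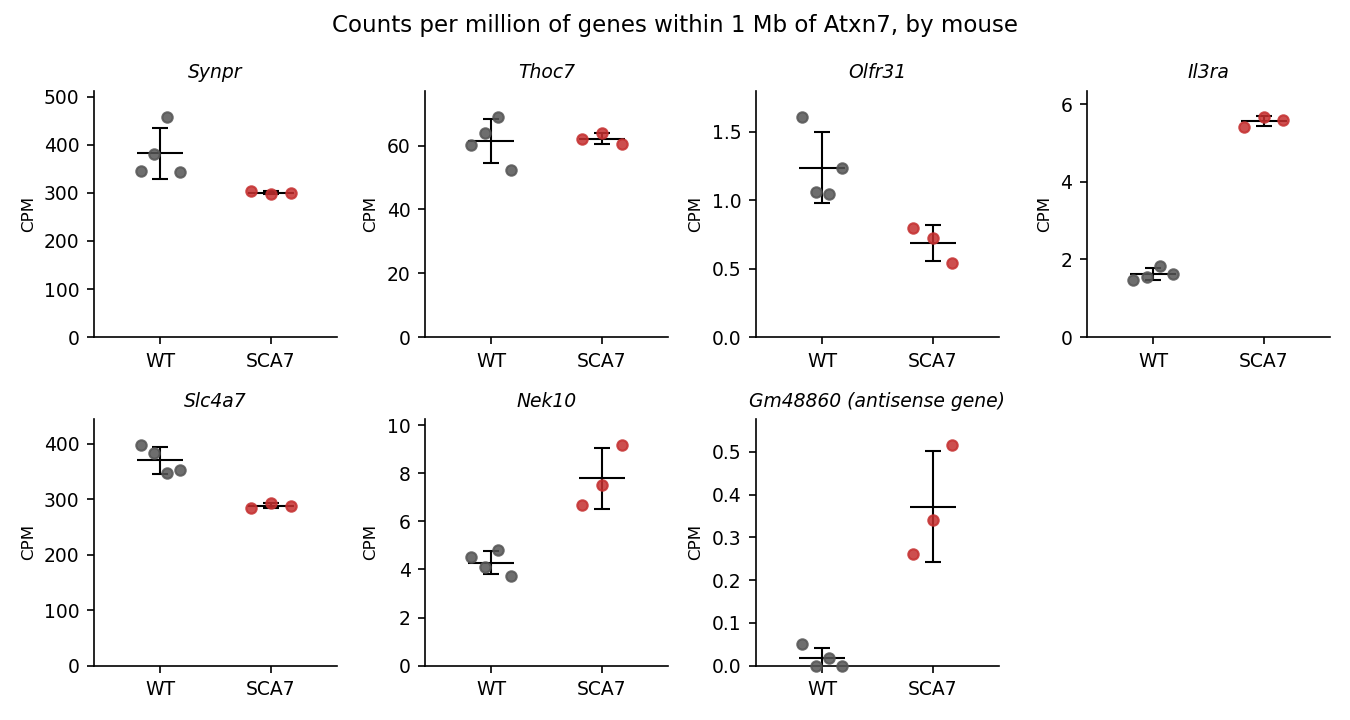
CPM in each library for the 6 neighbours within 1 Mb of Atxn7, in chromosomal order, and for the antisense gene Gm48860, with linear axes from 0. Points are mice (4 WT in grey, 3 SCA7 in red), and bars give the mean and SD. Thoc7 overlaps between the genotypes, while Synpr, Olfr31, Il3ra, Slc4a7 and Nek10 do not.

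Between 1 and 5 Mb, the proximal side held the largest change at Fhit. This gene (chr14:9550092-11162035, minus strand, 2.8 Mb from Atxn7) encodes a diadenosine triphosphate hydrolase and spans a common fragile site. It was at 2, 1.73, 2.01 and 1.67 CPM in WT and 5.51, 4.78 and 5.39 CPM in SCA7 retina. The genotypes stood far apart, with an FC of 2.83 (95% interval of the log2 fold change 1.24 to 1.76, edgeR adjusted p = 3.0e-06). Its neighbours moved less. Ptprg, a receptor tyrosine phosphatase, had a log2 fold change of -0.15 (SE 0.06, edgeR adjusted p = 0.11). Fezf2, a zinc finger transcription factor, was lower by adjusted p alone (log2 -0.36, edgeR adjusted p = 0.026), as was Cadps, which primes dense-core vesicles for release (log2 -0.34, edgeR adjusted p = 0.0079). Between Ptprg and Fezf2, the uncharacterised 3830406C13Rik was upregulated, with 14.3 ± 0.661 CPM in the 4 WT and 19.9 ± 0.789 CPM in the 3 SCA7 mice (SD), an FC of 1.39 (edgeR adjusted p = 2.7e-04). Of its 4621 exon bases, 509 are shared on the same strand with Gm49355, so reads of these bases cannot be told apart. Gm49355 had 5, 4, 4 and 4 counts in WT and 12, 8 and 9 counts in SCA7 libraries.

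On the distal side, Oxsm, a synthase of mitochondrial fatty acid synthesis 2.13 Mb from Atxn7, was at 5.3, 5.3, 4.71 and 4.99 CPM in WT and 8.17, 7.29 and 7.59 CPM in SCA7 retina. It was upregulated with an FC of 1.51 (log2 0.60, SE 0.09, edgeR adjusted p = 4.2e-04), while Gm47794, a noncoding antisense gene lying within the bounds of Oxsm and also named after its values were seen, was downregulated from 0.944 to 0.498 CPM (log2 -0.91, edgeR adjusted p = 0.0044). Their exons do not overlap, but without the strand option unspliced reads of Oxsm may not be told from reads of Gm47794. Ngly1, which removes N-glycans from misfolded proteins, lies next to Oxsm and was lower by adjusted p alone (log2 -0.20, edgeR adjusted p = 0.031). Rarb, a retinoic acid receptor, and Lrrc3b, a leucine-rich repeat protein, were higher by adjusted p alone, with log2 fold changes of 0.33 (edgeR adjusted p = 0.018) and 0.35 (edgeR adjusted p = 0.048). Both passed the FC threshold in some fits with 1 library left out, Rarb without WT replicate 1 (0.40) or SCA7 replicate 3 (0.38) and Lrrc3b without WT replicate 3 (0.41). Antisense genes overlap 38.4% of the exon bases of Rarb, where Top2b is one of the partners, and 20.5% of those of Lrrc3b, so the limit on strand given for Olfr31 holds for them too. Farther on, none of the 4 genes at 4.1 to 4.47 Mb passed the adjusted p, with values from -0.10 for the ubiquitin-conjugating enzyme Ube2e2 to 0.12 for its relative Ube2e1. The other genes of this run were Nr1d2, a repressor of the circadian clock, at -0.05, and Nkiras1, an inhibitor of NF-kB signalling, at 0.06.

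At 5 to 6 Mb proximal, a run of genes held both directions. Fam107a, an actin-associated protein induced by stress, was at 27.7, 31, 23.2 and 51.5 CPM in WT and 13.5, 11.8 and 11.2 CPM in SCA7 retina. It was downregulated with an FC of 0.363 (log2 -1.46, SE 0.30, edgeR adjusted p = 0.015), and WT replicate 4 was the highest library by far. The call was lost without any 1 of the 3 SCA7 libraries, at log2 fold changes of -1.54, -1.44 and -1.40 and adjusted p values of 0.054, 0.06 and 0.058. Rpp14, a subunit of ribonuclease P, was upregulated, with 25.6 ± 1.76 CPM in the 4 WT and 33.9 ± 0.961 CPM in the 3 SCA7 mice (SD). Its FC was 1.33 (edgeR adjusted p = 7.5e-04), and it kept its adjusted p but not its FC call without WT replicate 1 (log2 0.37). Kctd6, an adaptor of a cullin ubiquitin ligase, rose from 15 ± 1.96 to 19.8 ± 0.185 CPM (SD), an FC of 1.32 (edgeR adjusted p = 0.0075), and likewise lost its FC call without WT replicate 3 (log2 0.31). Acox2, a peroxisomal oxidase of bile acid intermediates, rose from 0.237 to 0.439 CPM (log2 0.89, edgeR adjusted p = 0.03). Its call was lost without WT replicate 3 or 4 or SCA7 replicate 2 or 3 (log2 0.69 to 0.96, adjusted p 0.051 to 0.16). The lipid hydrolase Abhd6 did not pass, at a log2 fold change of -0.07 (95% interval -0.23 to 0.09).

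The proximal end of the segment, from 6.51 Mb outwards, held 6 genes of very low level, 4 of them upregulated. The gene 2610042L04Rik, nearest this end at 9.61 Mb, had no count in any of the 4 WT libraries and 12, 21 and 17 counts in the SCA7 libraries. Its level in SCA7 retina was at least 16.6-fold higher than a floor of 3 counts over the WT group, counting error only (edgeR adjusted p = 4.3e-04). Gm10406 was at 0.0342, 0, 0.0375 and 0.0306 CPM in WT and 0.211, 0.246 and 0.253 CPM in SCA7 retina (log2 3.21, SE 0.50). Gm3411 rose from 0.0588 to 0.412 CPM (log2 2.75, SE 0.35) and Gm3739 from 0.145 to 0.328 CPM (log2 1.21, SE 0.34, edgeR adjusted p = 0.021). The call of Gm3739 was lost without WT replicate 1 or 2 or SCA7 replicate 1 or 3 (log2 0.99 to 1.19, adjusted p 0.057 to 0.12). Gm3248 and Gm3755 did not pass, at -0.10 and -0.32. These 6 genes share sequence with many others, and 48.8% to 90.3% of the 50-base windows of their transcripts occurred in other genes, against a median of 0.7% over the other neighbours. Of those others, Gm2237 (83.0%) and Gm3839 (59.8%) were also over 50%. A read of 50 bases from such a window cannot be placed on 1 gene, so which copy changed is uncertain. Without the 6, 13 of 64 genes were called (20.3%) and the median absolute log2 fold change was 0.23.

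The distal end held 34 of the 71 neighbours. From 5 to 10 Mb distal, 3 of 33 tested genes were called (9.09%), beside 14.9% of all protein-coding genes. At the same distance proximal it was 8 of 16, of which 3 reached the minimum of counts through SCA7 alone, and 4 of 10 without the genes of the proximal end. By side, 7 of 46 distal genes (15.2%) and 10 of 24 proximal genes (41.7%) were called, or 6 of 18 proximal genes (33.3%) without the 6 at the proximal end. Cfap70 (chr14:20394193-20452226, minus strand, 6.29 Mb), an axonemal protein of cilia and flagella, was at 4.2, 3.86, 4.69 and 3.96 CPM in WT and 1.17, 0.984 and 1.13 CPM in SCA7 retina. It was downregulated in all 3 SCA7 mice with an FC of 0.262 (log2 -1.93, SE 0.13, edgeR adjusted p = 9.3e-07). Of the genes next to it, Dnajc9, a histone chaperone at 6.28 Mb, was lower by adjusted p alone (log2 -0.37, edgeR adjusted p = 0.0077) without overlap. Mrps16, a mitochondrial ribosomal protein at 6.28 Mb, Anxa7, an annexin at 6.35 Mb, and Mss51 at 6.38 Mb did not pass, with log2 fold changes of -0.09, -0.11 and -0.41. Dusp13, a dual-specificity phosphatase, was at 0.342, 0.21, 0.394 and 0.26 CPM in WT and 0.0163, 0.082 and 0.0583 CPM in SCA7 retina (log2 -2.38, SE 0.43, edgeR adjusted p = 0.0016). Its exons overlap an antisense gene over 10.2% of their bases. Plau, the urokinase-type plasminogen activator, was at 0.461, 0.447, 0.338 and 0.245 CPM in WT and 0.731, 1.03 and 0.933 CPM in SCA7 retina, without overlap (log2 1.27, SE 0.24, edgeR adjusted p = 0.0018). Kcnma1, the pore of the BK potassium channel and the last gene at this end (9.18 Mb), was at 202, 220, 213 and 221 CPM in WT and 153, 148 and 153 CPM in SCA7 retina. Its FC of 0.707 (log2 -0.50, SE 0.06, edgeR adjusted p = 7.7e-05) lay just short of the threshold and passed it without WT replicate 1 (log2 -0.53).

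**Figure D5:**
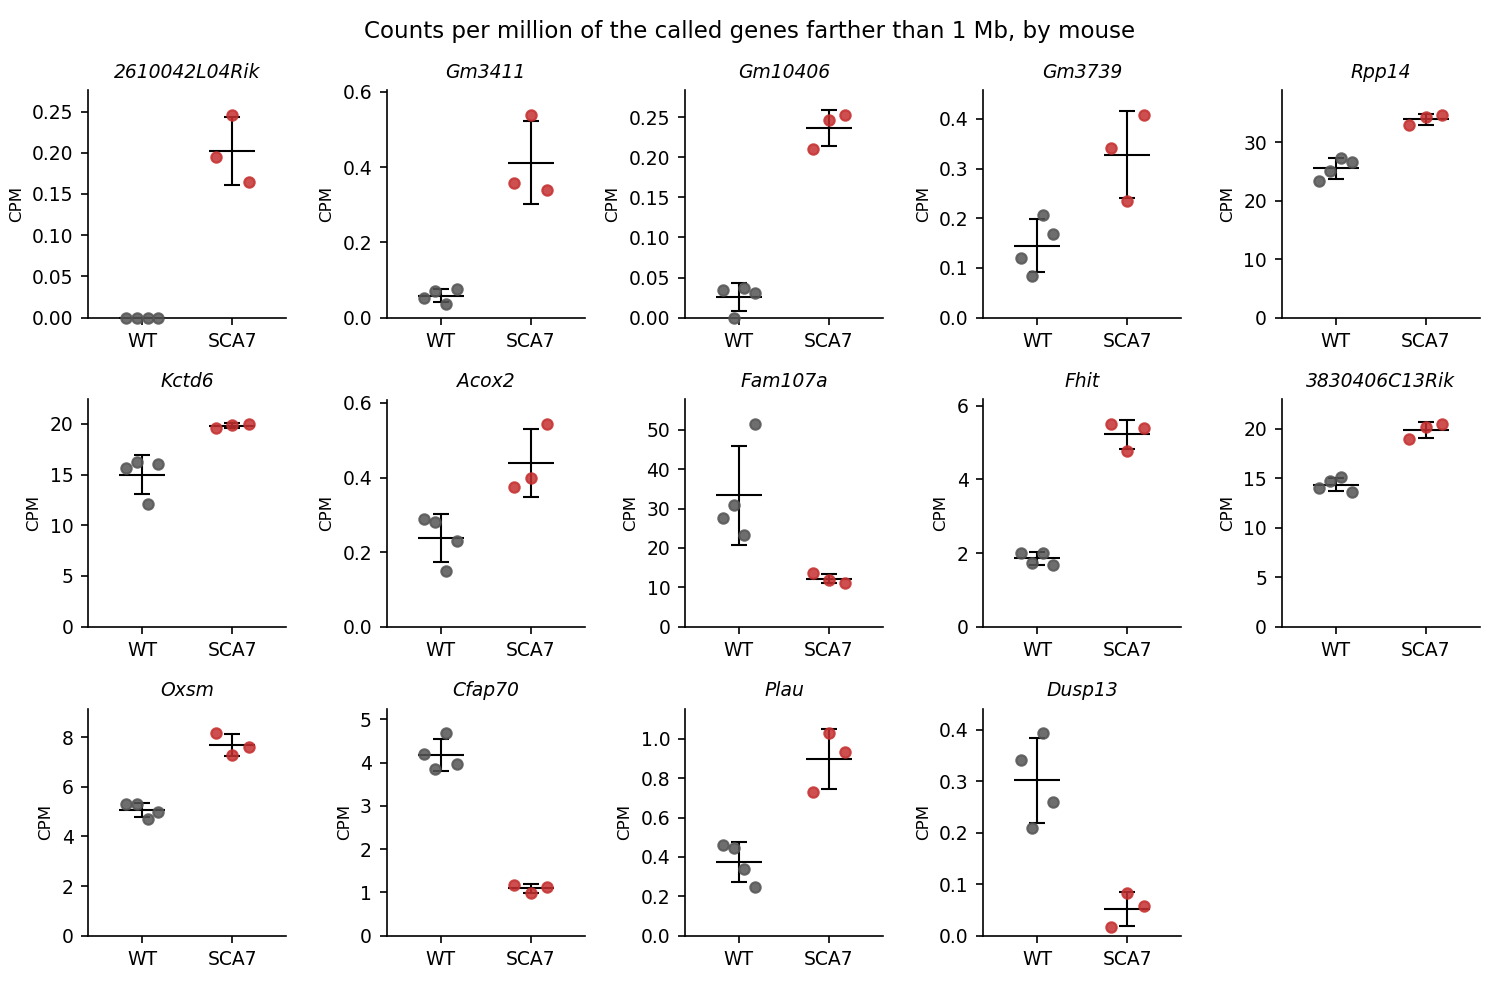
CPM in each library for the 14 called neighbours farther than 1 Mb from Atxn7, in chromosomal order from the proximal end, with linear axes from 0. Points are mice (4 WT in grey, 3 SCA7 in red), and bars give the mean and SD. The genotypes do not overlap in any of the 14, and Fam107a, Cfap70 and Dusp13 are the genes with lower SCA7 values.

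The neighbours were also sorted by role, in lists of 5 to 13 tested genes, to be read beside the 14.9% of all protein-coding genes called and the 31.1% past the adjusted p. Of 13 genes of transcription, chromatin and RNA handling, 2 were called (15.4%), both higher (Rpp14 and Kctd6), and 7 passed the adjusted p (53.8%), 2 lower and 5 higher. At the ends of this list, Rpp14 had the largest change at 0.41 and Thoc7 the smallest at 0.02, while Kat6b, a histone acetyltransferase, was lower by adjusted p alone (log2 -0.32, edgeR adjusted p = 0.011). Of 9 tested genes of synapse, secretion and channels, none was called and 5 passed the adjusted p (55.6%), 4 of them lower. Those 4 were Kcnma1, Slc4a7, Synpr and Cadps, and the higher one was Camk2g, a calcium/calmodulin-dependent kinase (log2 0.30, edgeR adjusted p = 0.0013). Rod and cone markers were lower in the same libraries, and their part in these values was not tested.

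Of 12 genes of metabolism and mitochondria, 2 were called (16.7%), both higher (Acox2 and Oxsm), and 5 passed the adjusted p (41.7%). Among them Comtd1, a catechol methyltransferase-like protein, had an FC of 0.713 (log2 -0.49, edgeR adjusted p = 0.0021), just short of the threshold but past it without WT replicate 4 (log2 -0.55), and 37.3% of its exon bases overlap antisense genes, Vdac2 among them. The mitochondrial porin Vdac2 had the smallest change at 0.01. Of 9 genes of adhesion and cytoskeleton, Fam107a fell and Fhit rose (22.2% called), and 5 passed the adjusted p (55.6%), with Vcl, for vinculin, at 0.29 (edgeR adjusted p = 0.032) and with 25.5% of its exon bases overlapped by an antisense gene. Of 6 genes of ubiquitin and proteolysis, 1 was called (Plau, 16.7%) and 2 passed the adjusted p (33.3%). Of 5 genes of the list of protein modification and kinases, 3 were called, with Nek10 higher and Cfap70 and Dusp13 lower, and Dusp13 had reached the minimum of counts through WT alone. The lists are broad, and some called members have other known roles than the list's name, as with Kctd6, a ubiquitin ligase adaptor listed with transcription, Fhit, a hydrolase listed with adhesion, and Cfap70, a ciliary protein listed with kinases. The remaining 16 genes were in no role list, and 7 of them were called, 4 of these from the proximal end.

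Per kb of the median annotated transcript, the highest levels in WT were those of Top2b, a type II topoisomerase (628 CPM per kb), Vdac2 (244), Nr1d2 (223), Synpr (150) and Sec24c, a coat protein of vesicles leaving the endoplasmic reticulum (142). The median transcript of Top2b is only 763 bases long, so this order depends on the annotation. Of the 5, Synpr alone passed the adjusted p, with the value given above. Top2b was at 488, 497, 443 and 488 CPM in WT and 508, 488 and 507 CPM in SCA7 retina, and its log2 fold change was 0.06 (95% interval -0.08 to 0.21, edgeR adjusted p = 0.5).

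Genes of other biotypes in the segment gave a further view of it. Of 233 such genes in the table, 29 reached the minimum of counts and 28 were tested. Of these, 4 were downregulated and 1 upregulated (17.9%), against 16.8% of all tested genes of other biotypes (13.8% lower, 3.09% higher), and all 5 are named after their values were seen. Of the 5, Gm48860 reached 10 counts in SCA7 libraries alone and Gm10044 in WT libraries alone. The lower ones were Gm10044 (log2 -2.55), Gm48600 (log2 -2.34), Gm5087 (log2 -1.32) and Gm47794. Gm5087 lies 0.677 Mb proximal to Atxn7 and was at 1.11, 0.895, 0.713 and 0.795 CPM in WT and 0.325, 0.387 and 0.34 CPM in SCA7 retina, without overlap (edgeR adjusted p = 7.3e-04).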

How the data were processed

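Total RNA depleted of ribosomal RNA was made into stranded libraries and sequenced as single reads of 50 bases. The authors mapped reads to mm10 with TopHat2 2.0.14 and Bowtie2 2.1.0 and counted them per gene of Ensembl release 90 with HTSeq 0.6.1. They deposited raw counts without normalization. The counting mode and strand option are not given in the sources used here. Positions and biotypes came from GENCODE M21, which covered 52403 of the 52550 genes.

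Genes were filtered with filterByExpr, libraries scaled by TMM, and genotypes compared by the quasi-likelihood test of edgeR 4.0.16 in R 4.3.3 without covariates. P-values were adjusted by Benjamini-Hochberg across the 20128 genes kept. The study used DESeq2. Alternatives were DESeq2 1.42.0, limma 3.58.1 (voom), other scaling, filters and thresholds, a replicate block, a covariate for Xist and leaving out each library. The edgeR, DESeq2, voom and block fits were first tested on simulated data. The genes and role lists were chosen with earlier results of these data known. Genes named were those within 1 Mb, the called genes at 1 CPM or more, the extremes of each role list, the genes at the edges of the rule and of the segment, and the 5 highest per kb. Called genes under 1 CPM and examples from role lists or neighbouring positions were added after their values were seen. Results of 1 neighbour are not reported here. Each library is 1 mouse, and totals of 56497675 to 96635832 counts set the counting precision.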

Additional observations from a re-analysis of the deposited data

Results flagged for a closer look

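In 5 of the 70 tested neighbours, 1 of the 4 WT libraries stood apart from the others by Dixon's test at its 95% critical value. Chance gives about 1 such gene in 20, and each gene is a test of its own. Kctd6 was at 12.1 CPM in WT replicate 3 and at 15.6 to 16.2 CPM in the other WT libraries. Top2b was at 443 CPM in WT replicate 3 and at 488 to 497 CPM in the others. Ube2e2 was at 15.8 CPM in WT replicate 3 and at 13.3 to 13.5 CPM in the others. Fam149b was at 32 CPM in WT replicate 3 and at 35.7 to 36.3 CPM in the others. Nid2, for the basement membrane protein nidogen 2, was at 2.66 CPM in WT replicate 1 and at 1.48 to 1.59 CPM in the others.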

How the results depend on the processing

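Of the 17 called neighbours, 11 kept direction and call under every alternative that tested them, and none changed direction. Of these 11, 4 (2610042L04Rik, Gm3411, Gm10406 and Dusp13) were not tested at 10 counts in every library. The other 6 were Gm3739, Rpp14, Kctd6, Acox2, Fam107a and Olfr31. Each lost its call without at least 1 library, and Acox2 also by the DESeq2 Wald test (adjusted p 0.062). Of the 53 genes tested and not called, 5 gained a call and 11 changed direction somewhere.

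The count of 4 downregulated genes became 14 without an FC threshold and 1 in a segment of 5 Mb on either side, and ran from 2 to 5 over fits without 1 library, with 2 without SCA7 replicate 3. The count of 13 upregulated genes became 8 with at least 10 counts in every library, 20 without an FC threshold and 5 in the smaller segment, and was 12 without any 1 library. The median log2 fold change of 0.01 became 0.04 without a filter, -0.04 with 10 counts in every library and -0.01 without the 6 genes of the proximal end, and ran from -0.02 to 0.04 without 1 library. The median absolute change of 0.28 became 0.20 with 10 counts in every library, 0.34 in the smaller segment, and 0.23 without the genes named Gm or without the proximal end, and ran from 0.23 to 0.30 without 1 library. The rho of absolute change with distance, 0.03, became 0.27 on the proximal side and -0.10 without the proximal end, and ran from 0.01 to 0.06 without 1 library. The median absolute change nearest to Atxn7, 0.61 within 1 Mb, became 0.36 within 2 Mb and ran from 0.53 to 0.66 without 1 library. The alternatives without the proximal end were chosen after seeing the data. Fewer genes entered the smaller segment and the stricter filter, and the cause of the other shifts was not tested.

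Both genotypes share replicate numbers 1 to 3, and deviations of same-numbered libraries correlated at 0.005, 0.204 and 0.089, so the numbers were not taken to pair mice. A fit with the replicate block left out WT replicate 4, which has no partner. On these 6 libraries it gave 6 downregulated genes, with Nid2 at -0.54 and Comtd1 at -0.55 added, and 13 upregulated ones. The same libraries without the block gave 5 and 12, with Comtd1 at -0.55 again called and Nid2 at -0.57 not called. Among genes not called, the block fit turned Oit1 to -0.15, Thoc7 to -0.05, Saysd1 to -0.02, Nudt13 to -0.04, Zswim8 to 0.02 and Vdac2 to -0.0037, and all 6 also turned without WT replicate 4 and no block (-0.16, -0.05, -0.02, -0.04, 0.01 and -0.004). The Xist covariate turned Thoc7 to -0.0034, Zswim8 to 0.0035 and Vdac2 to -0.0005. Without 1 library, log2 fold changes ran from -0.29 to 0.07 for Gm3248, -0.19 to 0.44 for Oit1, -0.05 to 0.08 for Thoc7, -0.09 to 0.0002 for Rtraf, -0.02 to 0.17 for Saysd1, -0.04 to 0.07 for Nudt13, -0.15 to 0.01 for Mrps16, -0.18 to 0.01 for Zswim8, -0.004 to 0.03 for Vdac2 and -0.35 to 0.60 for Lrmda. With 4 and 3 mice, an exact permutation test of 1 gene cannot give a two-sided p under 0.0286, and genes near 10 counts cannot show changes as small as those called in abundant genes.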
